A study of Mus musculus with 157 samples.

Results

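Xbp1 and 9 genes of endoplasmic reticulum (ER) chaperones, folding enzymes and their partners were followed through polysome gradients of B cells before and after DNA damage. The members were the entries of the count table whose gene name was Xbp1, Hspa5, Hsp90b1, Pdia4, Pdia6, Dnajb9, Herpud1, Sdf2l1, Creld2 or Calr, 10 of 19600 genes, and each name matched 1 entry. The rule used names alone. Splenic B cells of mice were grown with lipopolysaccharide (LPS), which drives B cells to divide and to start making antibody, and their cytoplasm was spread over sucrose gradients so that mRNAs with more ribosomes sank further. Each of 3 treatments had 4 gradients of 13 fractions (fractions 4 to 16), and each fraction gave a library of tags from mRNA 3′ ends.

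The LPS group had LPS at 10 µg/ml for 48 h and no further agent. The LPS+ET group had the same LPS and then etoposide at 20 µM for 4 h, a topoisomerase II poison that breaks DNA. The LPS+ET+KU group had 47 h of LPS and, for 1 h before the etoposide, KU55933 at 10 µM, an inhibitor of the DNA damage kinase ATM. All groups carried LPS, none was left unstimulated, and no group had KU55933 without etoposide. Fractions 4 to 7 were labelled monosomes, 8 to 10 light polysomes and 11 to 16 heavy polysomes. Gradients are named here by treatment and by a code in the column headers (LUL15 to LUL18), since each code held 1 gradient of each treatment. The code is called a library pool here, but the labels do not say what it stands for.

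The ER folds and modifies proteins bound for secretion. When unfolded protein builds up there, the sensor IRE1 (Ern1) splices Xbp1 mRNA, and the spliced form encodes a transcription factor that raises chaperone and degradation genes, next to the ATF6 and PERK branches of this unfolded protein response. XBP1 is required for B cells to become antibody-secreting plasma cells, whose ER expands. Tags from 3′ ends do not tell spliced from unspliced Xbp1 mRNA, so the values below are for both forms together.

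Many ER chaperone promoters are known to carry ER stress response elements, and the stretches that match their letters are shown as a description. Because the members were picked as ER chaperone genes and their partners, the shares below are no independent evidence about them. The RefSeq promoter windows (GRCm38.p6, 250 bases before to 50 after the annotated start) matched all 10 members, and both strands were searched for ERSE (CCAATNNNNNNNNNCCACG), ERSE-II (ATTGGNCCACG) and UPRE (TGACGTGG). ERSE stood in the windows of 5 members, Hspa5, Hsp90b1, Pdia6, Creld2 and Calr, and in 0.119% of all 32851 windows. ERSE-II stood in the window of Herpud1 and in 0.0365% of all windows, and UPRE in none of the members' windows and in 0.676% of all. The 7 stretches follow, each 5′ to 3′ in the orientation of the element, with the fixed letters of the element in capitals, and no stretch overlapped another.
Hspa5, plus strand, chr2:34772025-34772043, 65 bases before the start: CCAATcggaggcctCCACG
Hsp90b1, plus strand, chr10:86705533-86705551, 107 bases before the start: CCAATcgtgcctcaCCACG
Hsp90b1, minus strand, chr10:86705638-86705656, 212 bases before the start: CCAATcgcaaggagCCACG
Pdia6, plus strand, chr12:17266491-17266509, 98 bases before the start: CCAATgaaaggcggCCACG
Creld2, minus strand, chr15:88819520-88819538, 126 bases before the start: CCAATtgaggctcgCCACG
Calr, plus strand, chr8:84847075-84847093, 162 bases before the start: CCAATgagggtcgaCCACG
Herpud1, plus strand, chr8:94386377-94386387, 52 bases before the start: ATTGGgCCACG

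The windows of Xbp1, Pdia4, Dnajb9 and Sdf2l1 held none of these exact letters, which says only that the letters are not in these windows.

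Gradient totals ran from 6404957 to 21449781 counts, and single libraries from 14724 to 4170688 (median 811932), with 12 of 156 under 100000. Members were covered by 71 to 488 counts per gradient for Dnajb9, the sparsest, up to 7696 to 28380 for Calr. Levels are given as normalized counts per 1000000 (CPM, TMM scaling) of fractions 4 to 16 summed, that is, of ribosome-associated mRNA. A tag marks the 3′ end of an mRNA, so CPM does not grow with transcript length. It does depend on how deeply the fractions that hold a gene were sequenced, so orders of genes are of these tags, not of mRNA amounts. B cell markers were present in every gradient (summed CPM of the 8-gene list between 1732 and 3502), though 1 of them, Pax5, was below 1 CPM in LPS+ET and LPS+ET+KU, and T cell and erythroid lists summed to at most 5.49 and 1.38 CPM. Heavy polysomes held 52.3% to 62.4% of the counts in the LPS gradients. Both gradients that stood apart were of pool LUL16. The LPS+ET gradient had the fewest counts and 30.4% of them in heavy polysomes, against 60.6% to 68.2% in the other LPS+ET gradients. The LPS+ET+KU gradient had the most counts, 37.6% of them in heavy polysomes, against 43.1% to 55.5% in the others of its group, and 0.477% of its counts fell on mitochondrial genes, against 2.28% to 5.97% in the 11 other gradients. Results are therefore also given without that pool where a call changed.

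In LPS, the order of levels ran from Calr through Herpud1, Pdia6, Hspa5, Sdf2l1, Pdia4, Xbp1, Creld2 and Hsp90b1 to Dnajb9. Calr, encoding the lectin chaperone calreticulin (chromosome 8, 84841849 to 84846933), had the highest level, 1228 ± 277 CPM (SD, n = 4), and stood at rank 92 of 12755 tested genes. Herpud1, encoding an ER membrane protein of the degradation machinery (chromosome 8, 94386437 to 94395376), followed at 714 ± 95.8 CPM. Pdia6 (chromosome 12, 17266544 to 17284769) and Hspa5 (chromosome 2, 34771969 to 34776530) had 586 ± 88.1 and 555 ± 51.1 CPM. Herpud1 and Pdia6 overlapped between gradients, as did Pdia6 and Hspa5, while every Calr value lay above every Herpud1 value.

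Sdf2l1, encoding a stromal cell-derived factor 2-like ER protein that binds chaperone complexes (chromosome 16, 17130137 to 17132382), had 237 ± 46.4 CPM in LPS. Pdia4 (chromosome 6, 47796141 to 47813511) had 150 ± 20.3 CPM and Xbp1 (chromosome 11, 5520658 to 5525892) 107 ± 15.0 CPM. These 3 genes did not overlap with each other in LPS. Creld2 (chromosome 15, 88819645 to 88826680) and Hsp90b1 (chromosome 10, 86690208 to 86705508) overlapped, at 69.9 ± 9.70 and 59.9 ± 27.7 CPM, and Dnajb9 (chromosome 12, 44205896 to 44210067) was lowest at 22.1 ± 2.18 CPM. Coordinates are of GRCm38.

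**Figure D1:**
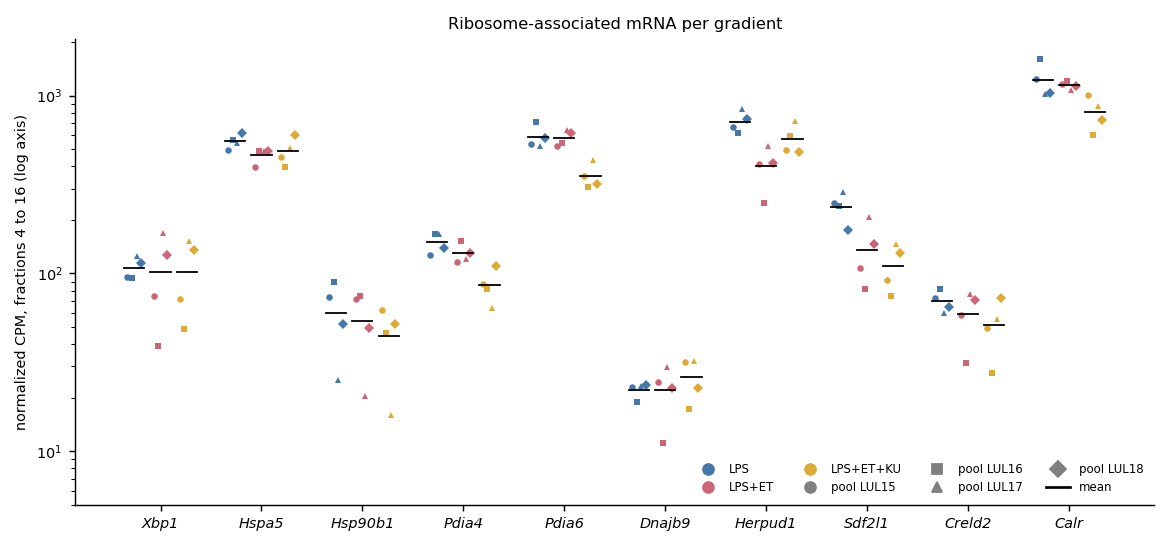
Normalized CPM of ribosome-associated mRNA (fractions 4 to 16 summed, log axis) for the 10 members, 1 point per gradient, coloured by treatment and shaped by library pool, with a bar at the mean of 4 gradients. Herpud1 in LPS+ET lies below all LPS gradients, and pool LUL17 has the lowest of the Hsp90b1 points in each treatment.

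For 8 of 10 members the counted tags came from 1 poly(A) site. The main site lay in an untranslated exon of the GENCODE annotation for every member but Sdf2l1, whose site lay 1 base past the annotated end. It was 400 bases from an annotated transcript end for Pdia6, 335 for Dnajb9 and at most 240 for the others. Hsp90b1 was counted at 3 sites, with 84.3% of tags at position 86690931 in an untranslated exon and 9.5% at an intronic position, 86698316. Dnajb9 was counted at 4 sites, the largest of which held 40.2% of its tags.

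The first comparison asked how etoposide changed the mRNA on ribosomes. The edgeR quasi-likelihood test ran over 12755 genes, 4 gradients against 4, with the spread taken from all 12 gradients and no pairing by pool. Of the members, 0 of 10 passed an adjusted p of 0.01, where 12.7% of all genes did, 4.81% lower and 7.88% higher. At an unadjusted p under 0.05, 2 members passed, against 34.4% of all genes. A fit with the library pool as a block called 2 members, Herpud1 and Sdf2l1, as given below. The fold changes of 9 of 10 were below 0, with a median log2 of -0.18 against 0.03 over all genes tested. Their summed level was 3537 to 4193 CPM in LPS and 2875 to 3353 in LPS+ET, without overlap. Herpud1 had the largest part in that difference, with means of 714 CPM in LPS and 399 CPM in LPS+ET. The summed level of the B cell markers (2494 to 3502 CPM in LPS, 1732 to 2399 in LPS+ET) was also lower without overlap. So was that of the PERK branch list given below (1241 to 1649 and 493 to 1044 CPM). The sums of other ER chaperones overlapped (3485 to 4370 and 2604 to 4438 CPM). Those of ER sensors, other disulphide enzymes and ER-associated degradation overlapped too. Whether the members fell as a set was not tested, and the sum alone does not show it. In such bulk samples fewer cells that express a gene and less of its mRNA per cell cannot be told apart.

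Herpud1 had the lowest fold change. It had 666, 616, 836 and 740 CPM in the LPS gradients of pools LUL15 to LUL18, and 413, 249, 519 and 416 CPM in those of LPS+ET. The groups did not overlap, and the LPS+ET gradient was the lower one in all pools. The log2 fold change was -0.84 ± 0.22 (SE), with an adjusted p of 0.0159 from edgeR. With the library pool as a block it was -0.86 ± 0.17 with an adjusted p of 9.81e-04, which passes the threshold.

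Sdf2l1 had 249, 238, 287 and 175 CPM in LPS and 108, 82.0, 209 and 146 CPM in LPS+ET, in the same pool order. The LPS+ET gradient was again the lower in every pool, but the groups overlapped because the LPS+ET gradient of pool LUL17 exceeded the LPS gradient of pool LUL18. Its log2 fold change was -0.80 ± 0.29 (adjusted p = 0.0659, edgeR), and with the pool as a block -0.89 ± 0.20 (adjusted p = 0.00270, edgeR). With this block 2 members were called, Herpud1 and Sdf2l1, while the number of all genes called rose from 1618 to 3403.

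Xbp1 itself had 95.1, 94.2, 125 and 114 CPM in LPS and 74.6, 38.97, 169 and 126 CPM in LPS+ET. It was lower in 2 pools and higher in 2, and the spread between pools in LPS+ET (SD 57.1) was larger than the difference of the means (log2 fold change -0.06 ± 0.41). Hspa5, encoding BiP, the ER chaperone of the Hsp70 family, had 494, 563, 544 and 617 CPM in LPS and 398, 488, 485 and 486 CPM in LPS+ET. All 4 of the latter lay below all of the former, with a log2 fold change of -0.26 ± 0.17 that did not pass the test (adjusted p = 0.313, edgeR). Groups without overlap in the lower direction were seen for 12.6% of all genes in this comparison (27.5% in either direction) and for 2 of 10 members, Hspa5 and Herpud1.

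The other 6 members had log2 fold changes between -0.23 and 0.00 in LPS+ET. Hsp90b1, encoding the ER member of the Hsp90 family, depended on the pool more than on the treatment: in pool LUL17 it had 25.3 CPM in LPS, 20.5 in LPS+ET and 16.0 with KU55933 as well, and in the other pools between 46.0 and 89.1 CPM. Pdia6, a protein disulphide isomerase, had a log2 fold change of -0.01 ± 0.17, and Pdia4, of the same family, -0.20 ± 0.19. Dnajb9, a cochaperone of BiP, had 0.00 ± 0.27, Creld2, an ER protein with EGF-like repeats, -0.23 ± 0.30, and Calr -0.10 ± 0.20.

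**Figure D2:**
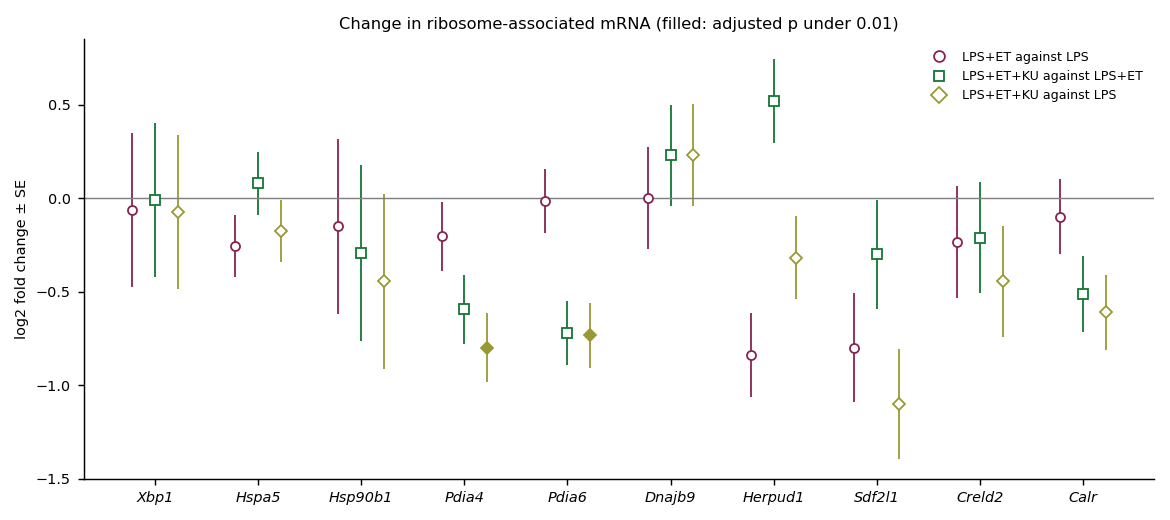
Log2 fold changes of ribosome-associated mRNA (± SE, edgeR, 12 gradients) for the 10 members in the 3 comparisons, with filled symbols for an adjusted p under 0.01. Only Pdia4 and Pdia6 in LPS+ET+KU against LPS are filled, and the lowest value is that of Sdf2l1 in the same comparison, -1.10.

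The members were also tested within each class of the gradient. In monosomes 3 of 10 members were lower, where 3.08% of 8932 genes were lower and 9.52% called in either direction. Pdia4 had 45.1, 52.1, 44.8 and 30.9 CPM of monosome tags in LPS and 21.95, 21.5, 19.7 and 12.8 CPM in LPS+ET, without overlap. Its log2 fold change there was -1.18 ± 0.23 (adjusted p = 0.00250, edgeR). Herpud1 fell by 1.18 ± 0.22 on the log2 scale (adjusted p = 0.00194, edgeR), from 671 ± 133 to 297 ± 75.3 CPM. Pdia6 fell by 0.64 ± 0.15 (adjusted p = 0.00966, edgeR), from 154 ± 19.3 to 99.3 ± 5.90 CPM, and it was no longer called when any 1 gradient was left out or without the 3 gradients of pool LUL16 (-0.59, adjusted p = 0.0269, edgeR). With no filter on low counts Pdia6 was not called (adjusted p = 0.0177, edgeR) and Sdf2l1 was (-1.09, adjusted p = 0.00964, edgeR). With the pool as a block 5 members were called lower in monosomes, with Hspa5 (-0.59 ± 0.17, adjusted p = 0.00910, edgeR) and Sdf2l1 (-1.06 ± 0.20, adjusted p = 2.40e-04, edgeR) added to these.

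In light polysomes 2 of 10 were lower, where 4.07% of 9922 genes were lower and 10.6% called in all. Herpud1 fell by 1.18 ± 0.23 on the log2 scale (adjusted p = 0.00264, edgeR) and Sdf2l1 by 1.09 ± 0.22 (adjusted p = 0.00352, edgeR). Sdf2l1 had 371 ± 75.3 CPM of light polysome tags in LPS and 175 ± 29.7 in LPS+ET, and its groups did not overlap. Pdia4 had a log2 fold change of -0.82 ± 0.23 (adjusted p = 0.0198, edgeR), and passed with the pool as a block (adjusted p = 0.00215, edgeR). Leaving out the LPS+ET gradient of pool LUL15 removed both calls, and leaving out that of pool LUL18 or the LPS gradients of pools LUL15, LUL16 or LUL17 removed that of Sdf2l1. Without the 3 gradients of pool LUL16 Herpud1 alone was called.

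In heavy polysomes 0 of 10 members were called, where 9.69% of 11368 genes were, and 1 member passed an unadjusted p of 0.05 where 31.8% of all genes did, Herpud1 (-0.65 ± 0.24, adjusted p = 0.0770, edgeR). DESeq2 called none there either. Xbp1, Hspa5, Pdia4, Pdia6, Hsp90b1 and Calr had log2 fold changes between -0.03 and 0.21 in heavy polysomes. These values depended on 1 gradient. The LPS+ET gradient of pool LUL16 was the highest of the 8 gradients compared for Hspa5 (1320 CPM of heavy polysome tags against 564 to 673 in the other LPS+ET gradients), Pdia4 (443 against 168 to 195), Pdia6 (1499 against 768 to 905), Hsp90b1 (213 against 27.3 to 107) and Calr (3218 against 1455 to 1641). Without it the log2 fold changes were -0.38 for Hspa5, -0.32 for Pdia4, -0.08 for Pdia6, -0.40 for Hsp90b1, -0.22 for Calr and 0.24 for Xbp1, and 0 of 10 members were called. Whether a member changed differently between classes was tested through its distribution along the gradient, described below, not by comparing these calls.

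The second comparison asked what inhibition of ATM changed in cells given etoposide. Between LPS+ET+KU and LPS+ET, 0 of 10 members were called, where 0.455% of all genes were, and 4 passed an unadjusted p of 0.05 where 15.9% of all genes did. These were Pdia6, Pdia4 and Calr, which were lower, and Herpud1, which was higher. DESeq2 called 1 member, Pdia6.

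Pdia6 had 520, 543, 644 and 616 CPM in LPS+ET and 351, 306, 434 and 319 CPM in LPS+ET+KU. Every LPS+ET+KU gradient lay below every LPS+ET gradient. The log2 fold change was -0.72 ± 0.17, with an adjusted p of 0.0460 from edgeR, and with the pool as a block it passed (adjusted p = 0.00764, edgeR). Pdia4 had 117, 152, 120 and 131 CPM in LPS+ET against 87.7, 82.1, 64.1 and 110 CPM (log2 fold change -0.59 ± 0.19, adjusted p = 0.118, edgeR). Calr had 1168, 1205, 1081 and 1134 CPM against 1008, 601, 875 and 732 CPM (-0.51 ± 0.20, adjusted p = 0.219, edgeR). Groups without overlap in the lower direction were 3 of 10 here, these 3 genes, and 4.74% of all genes (8.57% in either direction). These sums weight each fraction by its depth, and the share of counts in heavy polysomes, where the 3 genes were enriched, was 60.6, 30.4, 68.2 and 64.9% in LPS+ET and 43.1, 37.6, 55.5 and 51.4% in LPS+ET+KU. With equal weight per fraction the log2 fold changes were -0.25 for Pdia6, -0.38 for Pdia4 and -0.12 for Calr (adjusted p = 0.398, 0.407 and 0.897, limma).

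Herpud1 went the other way, from 413, 249, 519 and 416 CPM in LPS+ET to 496, 595, 717 and 485 CPM in LPS+ET+KU. The LPS+ET+KU value was the higher one in all pools, though the groups overlapped. Its log2 fold change of 0.52 ± 0.22 did not pass the test (adjusted p = 0.269, edgeR). With the pool as a block Herpud1 was called higher in monosomes (0.45 ± 0.11, adjusted p = 0.00813, edgeR) and in light polysomes (0.68 ± 0.13, adjusted p = 0.00230, edgeR). Without it no member was called in monosomes, light or heavy polysomes, where 0.213%, 0.292% and 0.572% of all genes were, and at an unadjusted p of 0.05 the numbers of members were 0, 1 and 4, against 13.5%, 15.3% and 14.9% of all genes.

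Xbp1 did not differ between these groups beyond its spread (102 ± 57.1 against 102 ± 49.2 CPM, log2 fold change -0.01 ± 0.41), nor did Hspa5 (464 ± 44.0 against 491 ± 86.4 CPM, 0.08 ± 0.17). Sdf2l1 was lower in LPS+ET+KU in all pools, at 92.0, 74.8, 146 and 130 CPM, with a log2 fold change of -0.30 ± 0.29.

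Set against LPS instead, LPS+ET+KU had 2 of 10 members called lower, where 4.42% of all genes were lower and 10.7% called in all. The LPS gradients are the same as in the first comparison and the LPS+ET+KU gradients the same as in the second. Pdia4 had a log2 fold change of -0.80 ± 0.19 (adjusted p = 0.00846, edgeR), from 127, 166, 167 and 138 CPM in LPS. Pdia6 had -0.73 ± 0.17 (adjusted p = 0.00899, edgeR), from 534, 713, 520 and 577 CPM in LPS. Without overlap were these 2, Sdf2l1 and Calr, all lower, and 12% of all genes in that direction (26.4% in either). Both calls lay close to the threshold. They were kept by DESeq2 and with the pool as a block (adjusted p = 0.00143 for Pdia4 and 0.00195 for Pdia6, edgeR). When any 1 gradient was left out, 0 or 1 of the 2 remained. Pdia6 remained without the LPS+ET+KU gradient of pool LUL17, Pdia4 without that of pool LUL18, and neither without any of the 6 others or without the 3 gradients of pool LUL16. With equal weight per fraction neither was called, at -0.59 for Pdia4 (adjusted p = 0.0392, limma) and -0.33 for Pdia6 (adjusted p = 0.0772, limma), and Calr had -0.28. The heavy share of counts given above was lower in 3 of 4 LPS+ET+KU gradients than in any LPS gradient. Sdf2l1 had the lowest fold change, -1.10 ± 0.29 (adjusted p = 0.0170, edgeR), and passed with the pool as a block (-1.16 ± 0.20, adjusted p = 4.38e-04, edgeR). Calr had -0.61 ± 0.20 (adjusted p = 0.0442, edgeR), Herpud1 -0.32 ± 0.22 and Xbp1 -0.07 ± 0.41.

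Along the gradient the members fell into a deep and a shallower set already in LPS. To give every fraction the same weight, each library was scaled to 1000000 tags, and RiboLoad was taken as the percentage of a gene's scaled tags in heavy polysomes. According to the paper, libraries were made from equal RNA concentrations of the fractions, so library totals do not measure the mRNA of a fraction. RiboLoad is therefore a position relative to the other mRNAs, not the percentage of a gene's mRNA molecules in heavy polysomes. In LPS, RiboLoad was 83.3 ± 4.04% for Hsp90b1, 80.5 ± 2.22% for Hspa5, 79.5 ± 2.25% for Pdia6, 79.4 ± 1.22% for Pdia4 and 75.1 ± 3.05% for Calr (SD, n = 4). These values stood at the 98.7, 97.3, 96.5, 96.4 and 91.6 percentiles of 8000 genes that averaged at least 100 counts in a gradient, whose median was 55.2%. Creld2 (58.2 ± 4.75%) and Herpud1 (51.3 ± 1.01%) lay near that median. Xbp1 (46.4 ± 2.05%), Sdf2l1 (45.9 ± 6.05%) and Dnajb9 (41.5 ± 5.19%) lay below it, at the 32.3, 31.3 and 24.3 percentiles.

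Heavy polysomes were also tested against monosomes within the LPS gradients, with the gradient as a term. Of the members 7 were relatively higher in heavy polysomes, where 29.5% of 9659 genes were, and 1 was lower, where 29.9% were (59.4% in both directions). The log2 ratios were 1.72 ± 0.12 for Pdia6, 1.54 ± 0.14 for Pdia4, 1.52 ± 0.13 for Hspa5, 1.40 ± 0.16 for Hsp90b1, 1.27 ± 0.12 for Calr, 0.90 ± 0.14 for Creld2 and 0.80 ± 0.15 for Sdf2l1. Herpud1 was the member that was lower (-0.57 ± 0.12, adjusted p = 1.28e-04, edgeR). Xbp1 (-0.18 ± 0.12) and Dnajb9 (0.06 ± 0.19) did not pass. DESeq2 called the same 8, and without the gradient term Hsp90b1 and Herpud1 were no longer called. The median over genes was -0.55 in DESeq2, over 19600 unfiltered genes, and 0.02 here, over 9659 filtered genes. These medians are of unlike gene sets and do not compare the scalings. With no filter on low counts Herpud1 was not called either (-0.29, adjusted p = 0.0380, edgeR).

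The distributions themselves had different shapes. Hspa5, Hsp90b1, Pdia4, Pdia6 and Calr had their largest share in fraction 14 in LPS (26.02 ± 3.57%, 25.8 ± 6.52%, 26.1 ± 6.99%, 25.2 ± 9.91% and 22.7 ± 9.27%). Sdf2l1 had its largest share in fraction 10 (19.8 ± 2.52%) and Creld2 in fraction 11 (16.5 ± 3.29%). Herpud1 had 2 modes, one in fraction 7 at 12.5 ± 2.43% and one in fraction 13 at 13.8 ± 2.68%, with 5.21% in fraction 10 between them. Xbp1 was spread broadly, with between 4.85% and 11.9% in every fraction. Dnajb9 had at most 13.7 ± 8.89% in a fraction, and its few counts give wide errors.

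**Figure D3:**
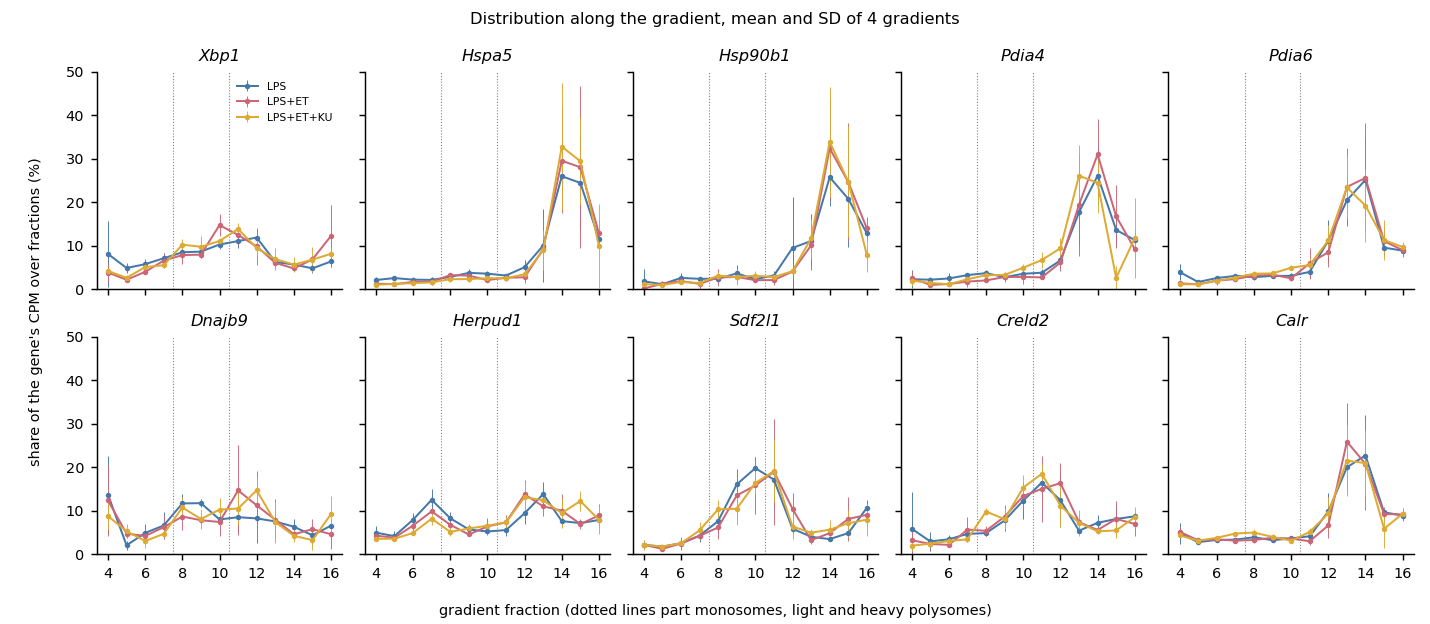
Share of each gene's scaled tags in fractions 4 to 16 (percent, mean ± SD of 4 gradients) for the 3 treatments, with dotted lines between monosomes, light and heavy polysomes. Hspa5, Hsp90b1, Pdia4, Pdia6 and Calr rise steeply at fractions 13 and 14, Herpud1 has a mode at fraction 7 as well, and Pdia4 drops at fraction 15 in LPS+ET+KU.

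The order of the members followed the length of their coding sequences. Hsp90b1, with 2406 annotated coding bases, had the highest RiboLoad, and Sdf2l1 (663 bases) and Dnajb9 (666 bases) the lowest. Across the 10 members Spearman's rho between coding length and RiboLoad in LPS was 0.964, and across 7601 genes with both values it was 0.537. Both are descriptions across genes of the same libraries. Genes with 1201 to 1800 coding bases had a median RiboLoad of 57.6% (quartiles 47.5% and 66.3%), and Pdia6 (1335 bases) and Calr (1248 bases) lay above the upper quartile of that class. Hspa5 (1965 bases) and Pdia4 (1923 bases) lay above the upper quartile of theirs, 70.0%, and Hsp90b1 above that of the longest class, 75.4%. Herpud1 (1173 bases), Xbp1 (801 bases), Sdf2l1 and Creld2 (1050 bases) lay within the quartiles of genes with 601 to 1200 bases, 42.1% and 61.3%, and Dnajb9 just under them. The length used for Xbp1 is that of 1 annotated transcript, while its tags hold spliced and unspliced forms together.

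**Figure D4:**
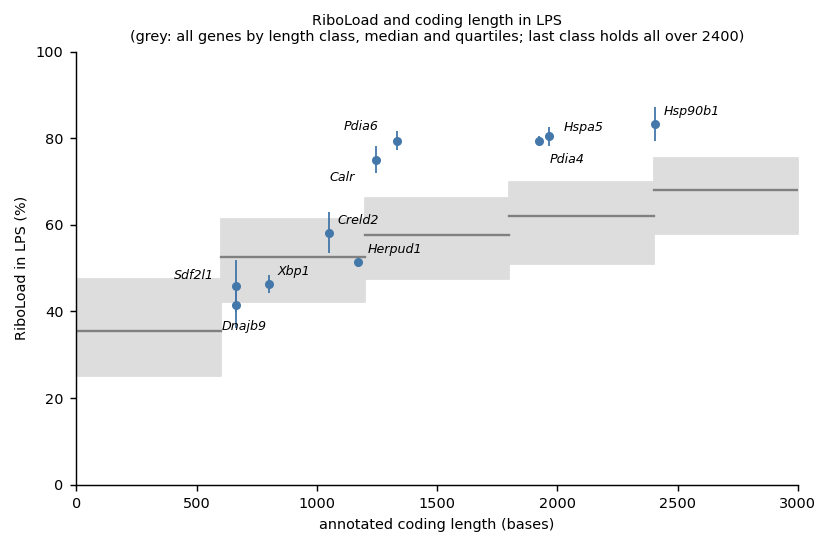
RiboLoad in LPS (percent, mean ± SD of 4 gradients) against annotated coding length for the 10 members, over the median (line) and quartiles (grey) of all genes in 5 length classes. The 5 chaperone genes Hsp90b1, Hspa5, Pdia4, Pdia6 and Calr lie above the upper quartile of their classes and the other 5 within or just under the quartiles.

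After etoposide, RiboLoad had a higher mean for 9 of 10 members, while its median over all genes was 55.2% in LPS and 53.9% in LPS+ET. The paper reports a global reduction of polysome assembly by etoposide, which values scaled per fraction cannot show. Over all 8000 genes 46.0% had a positive difference. No member passed an adjusted p of 0.01 in limma, where 0.325% of genes did. At an unadjusted p of 0.05, 5 of 10 members were higher and 0 lower, against 7.80% and 12.9% of all genes, 20.7% in all.

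Herpud1 had a RiboLoad of 52.7, 51.5, 50.7 and 50.5% in LPS and 59.9, 54.0, 57.1 and 60.5% in LPS+ET. Pdia4 had 77.9, 79.3, 80.9 and 79.5% in LPS and 85.4, 81.6, 84.1 and 91.0% in LPS+ET. Hspa5 had 78.0, 79.2, 82.2 and 82.5% in LPS and 82.8, 84.5, 87.1 and 87.1% in LPS+ET. In these 3 genes the groups did not overlap, which was so in the higher direction for 4.89% of all genes. The logit differences (log2) were 0.38 ± 0.17 for Herpud1, 0.66 ± 0.23 for Pdia4 and 0.50 ± 0.20 for Hspa5, with adjusted p of 0.210, 0.126 and 0.183 from limma. Pdia6 (79.5 ± 2.25% to 83.9 ± 1.51%) and Sdf2l1 (45.9 ± 6.05% to 54.6 ± 4.79%) were higher in all pools, with overlap. Calr (75.1 ± 3.05% to 74.6 ± 2.69%) was the member whose mean was lower.

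Xbp1 had a RiboLoad of 46.8, 45.9, 48.9 and 43.9% in LPS and 46.9, 59.3, 48.8 and 55.2% in LPS+ET, with overlap. Its mean fraction, the average fraction number weighted by the scaled tags, was 9.98, 10.2, 10.2 and 9.39 in LPS and 10.4, 11.5, 10.49 and 11.0 in LPS+ET. These values did not overlap, as was so in this direction for 2 members, Xbp1 and Herpud1, and 3.31% of genes. The difference for Xbp1, 0.89 ± 0.28 fractions, was the largest of the 10 members. It did not pass the test (adjusted p = 0.115, limma), which called 0.150% of all genes and none of the members. Xbp1 had 8.16% of its tags in fraction 4 and 6.43% in fraction 16 in LPS, against 3.88% and 12.3% in LPS+ET. These shares rest on 3, 12, 1 and 4 tags in fraction 4 under LPS, and on 4, 10, 50 and 26 tags in fraction 16 after etoposide. From the counts as deposited, with no scaling of fractions, the difference in mean fraction was -0.01 (adjusted p = 0.999, limma) and that in RiboLoad -0.07, against 0.36 with scaling. Without fraction 4, where the SD in LPS was 7.67%, no member was called for RiboLoad or mean fraction either.

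**Figure D5:**
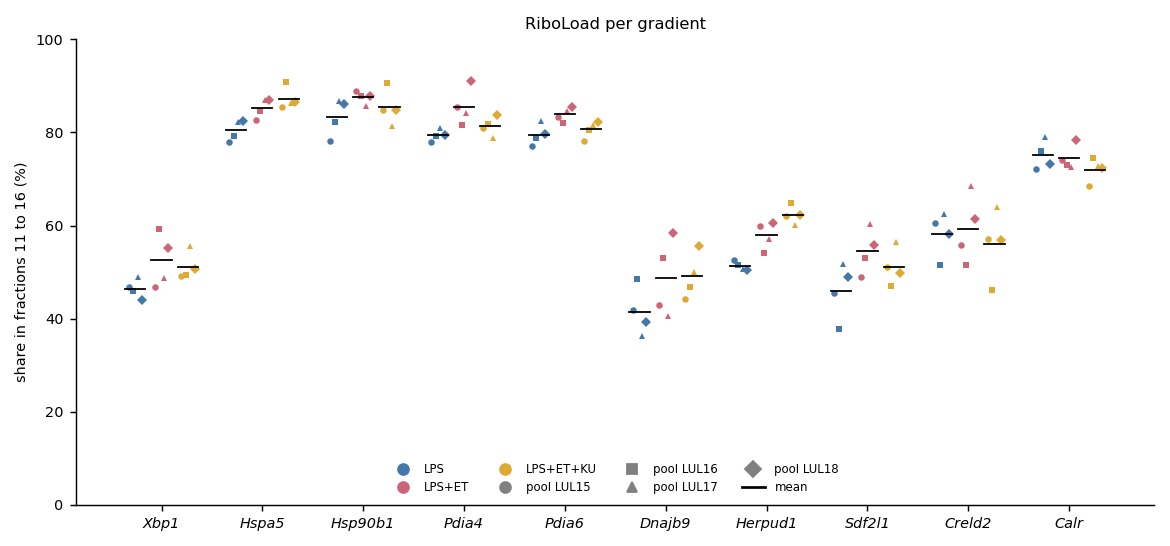
RiboLoad (percentage of a gene's scaled tags in fractions 11 to 16) of the 10 members in each gradient, coloured by treatment and shaped by library pool, with a bar at the mean of 4 gradients. Herpud1 has means of 51.3% (LPS), 57.9% (LPS+ET) and 62.3% (LPS+ET+KU), and no value of Hspa5, Hsp90b1, Pdia4, Pdia6 or Calr is below 68.5%.

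A model after the study's methods asked whether level or distribution differed at any fraction, with fraction, treatment and their interaction fitted to the single libraries of 8 gradients. In LPS+ET against LPS it called 3 of 10 members, Herpud1 (adjusted p = 1.48e-08), Sdf2l1 (9.63e-06) and Pdia4 (3.98e-05, edgeR), and 31% of 10360 genes. It treats the 13 libraries of a gradient as independent. A test of the distribution alone, with a term per gradient, called 0 of 10 members and 5.72% of genes, with the lowest adjusted p at 0.0302 for Pdia4 and 0.0526 for Xbp1 (edgeR). Leaving out the LPS gradient of pool LUL16 called Herpud1, and leaving out the LPS+ET gradient of that pool called Pdia4.

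In LPS+ET+KU against LPS+ET the same model called 2 of 10 members, Pdia4 (adjusted p = 9.04e-05) and Herpud1 (1.83e-04, edgeR), and 8.01% of 10472 genes. The call of Herpud1 was lost without the LPS+ET gradient of pool LUL18. The distribution alone was called for 1 member, Pdia4 (adjusted p = 3.00e-05, edgeR), and for 3.63% of genes, and Calr was added when the LPS+ET+KU gradient of pool LUL17 was left out. In both tests the p-value measures the spread between single libraries, not between gradients. RiboLoad and mean fraction called 0 members and 0% of genes in this comparison, and at an unadjusted p of 0.05 they passed 0 and 1 members (Pdia4, mean fraction) and 8.61% and 7.92% of genes.

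The change in Pdia4 lay in fraction 15. There Pdia4 had 228, 111, 327 and 297 CPM in LPS+ET and 33.3, 8.05, 50.6 and 8.85 CPM in LPS+ET+KU, without overlap. In LPS it had 166, 211, 292 and 248 CPM. The LPS+ET+KU values rest on 2, 1, 30 and 3 tags, against 204, 9, 159 and 132 in LPS+ET. The log2 ratio of the mean CPM (1 added) was -3.21, with 25 of 8000 genes lower and a median over all genes of 0.07. In fractions 14 and 16 of the same gradients it was -0.60 and -0.13. Hspa5 had a log2 ratio of 0.35 in fraction 15, Pdia6 -0.23, Hsp90b1 -0.12, Calr -0.79 and Herpud1 1.48. Fraction 15 was examined after these values were seen, and without it the distribution test called 0 members and the whole-profile test Herpud1 alone.

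Herpud1 in LPS+ET+KU had a RiboLoad of 62.1, 64.9, 60.1 and 62.3%, above all LPS gradients. In RiboLoad, Xbp1 and Hspa5 too had all LPS+ET+KU gradients above all LPS gradients, which was so for 6.78% of genes. No member was without overlap between LPS+ET+KU and LPS+ET, where 5.34% of genes were without overlap and 3.55% were higher. The mean fraction of Herpud1 was 11.1, 11.2, 11.2 and 11.3 in LPS+ET+KU, against 10.7, 10.6, 10.8 and 11.0 in LPS+ET, without overlap, and against 10.52, 10.2, 10.45 and 10.3 in LPS. Such groups were seen for 2.96% of genes between LPS+ET+KU and LPS+ET, and for 5.04%, Xbp1 among them, between LPS+ET+KU and LPS. Against LPS the difference in RiboLoad had an adjusted p of 0.0417 and that in mean fraction 0.0418 (limma), so neither passed the threshold that 0.775% and 0.388% of genes passed. From the counts as deposited the differences of Herpud1 between LPS+ET+KU and LPS+ET turned, from 0.40 to -0.54 for mean fraction and from 0.27 to -0.53 for RiboLoad (logit, log2), all uncalled in limma. In fraction 7, Herpud1 had 12.5 ± 2.43% of its tags under LPS alone, 9.83 ± 0.67% after etoposide and 8.16 ± 1.43% after KU55933 and etoposide.

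Other genes of the pathway were counted from lists of ER sensors and ATF6 proteases (6 genes), other chaperones and cochaperones (14), other disulphide enzymes (13, of which 12 were tested) and ER-associated degradation (19, of which 18 were tested). None of these was called in any of the 3 comparisons by edgeR. At an unadjusted p of 0.05, 6 of the 50 tested passed in LPS+ET against LPS, 7 in LPS+ET+KU against LPS+ET and 11 in LPS+ET+KU against LPS, where 34.4%, 15.9% and 35.9% of all genes did. The other chaperones had a median log2 fold change of -0.15, -0.23 and -0.40 in these comparisons, beside -0.18, -0.25 and -0.44 for the members and 0.03, 0.04 and 0.09 for all genes.

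The PERK branch list (4 genes) had median log2 fold changes of -0.79, 1.79 and 1.06 in these comparisons. Atf4, encoding the transcription factor of this branch, fell in LPS+ET (log2 fold change -1.12 ± 0.25, adjusted p = 0.00576, edgeR). Ppp1r15a, encoding the phosphatase subunit that reverses PERK signalling, was higher in LPS+ET+KU than in LPS (2.01 ± 0.36, adjusted p = 0.00178, edgeR). In LPS+ET+KU against LPS+ET none passed 0.01, though all 4 were higher, with values of 1.33 ± 0.25 for Atf4, 1.82 ± 0.42 for Ddit3, 1.75 ± 0.36 for Ppp1r15a and 1.95 ± 0.42 for Trib3 and adjusted p from 0.0180 to 0.0411 (edgeR). In that comparison the 4 are named after their values were seen.

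Markers of cell state moved with the treatments too. The summed level of the 8 B cell markers was 2494 to 3502 CPM under LPS alone, 1732 to 2399 after etoposide and 1917 to 2882 after KU55933 and etoposide, and 2 of the 8, Cr2 and Blnk, were called lower than in LPS both after etoposide and after KU55933 with etoposide. All 8 had negative fold changes in LPS+ET against LPS (median log2 -0.93), while 7 were positive in LPS+ET+KU against LPS+ET. The plasmablast list of 7 genes summed to 2364 to 3090, 2676 to 5077 and 2153 to 4044 CPM, with Tnfrsf17 below 1 CPM in all groups. Of its 6 tested genes 4 had positive and 2 negative fold changes in LPS+ET against LPS, and only Sdc1, the surface marker of plasma cells, was called (log2 fold change 3.42 ± 0.32, adjusted p = 7.91e-06, edgeR). Between LPS+ET+KU and LPS+ET all 6 were negative and Sdc1 alone was called (-1.93 ± 0.29, adjusted p = 0.00570, edgeR). Against LPS, LPS+ET+KU had 3 positive and 3 negative, with Sdc1 higher (1.496 ± 0.30, adjusted p = 0.00352, edgeR) and Irf4, a transcription factor of B and plasma cells, lower (-0.98 ± 0.19, adjusted p = 0.00317, edgeR). The myeloid list of 7 genes summed to 36.2 to 95.9, 47.3 to 164 and 32.01 to 126 CPM, and 1 of its genes, Cd14, was called, higher in LPS+ET+KU than in LPS (3.83 ± 0.51, adjusted p = 2.48e-04, edgeR). All 7 myeloid genes had positive fold changes in LPS+ET against LPS (median log2 0.77), while 6 were negative in LPS+ET+KU against LPS+ET. The part of these cell types in the members' values was not tested.

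The genes whose level over fractions and treatments was most like that of Xbp1 were Ppp2r4 (Pearson's r = 0.901), Ly6a (0.891), Spcs2 (0.890), Fkbp8 (0.885) and Arpc5 (0.880). For Hspa5 they were Alpl (0.978), Stat3 (0.969), Mcm4 (0.967), Stt3a (0.963) and Hsp90b1 (0.957). These r run over 39 means of log2(CPM + 1), from 13 fractions of 3 treatments, among 7511 genes with a mean of 10 or more CPM, and all points share libraries and depth. Among the members the closest pair was Hspa5 and Hsp90b1, followed by Pdia4 and Calr (0.895) and Pdia4 and Pdia6 (0.894), and Sdf2l1 was closest to Creld2 (0.870). The lowest r was that of Hsp90b1 and Dnajb9 (-0.287).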

How the data were processed

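Ribosome-associated mRNA of C57BL/6Babr splenic B cells was followed by 3′ end sequencing of 13 gradient fractions in 3 treatments of 4 gradients each. The study gives the gradients as biological replicates, and p-values for summed counts, RiboLoad and mean fraction measure the spread between them. Those of the whole-profile and distribution tests measure the spread between single libraries. The authors reverse-transcribed RNA of each fraction, removed PCR duplicates by random bases, aligned reads to GRCm38/mm10 after trimming A tracts and summed poly(A) sites per gene, and the deposited values are raw read counts. The submitters' processing notes name TopHat2 2.0.12, HTSeq and DESeq2 1.6.3. Of 157 count columns, 79 matched 1 sample title, and 78, of pools LUL16 and LUL18, matched only a treatment and fraction. A single library of fraction 17 was left out.

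Counts were summed per gradient or class and tested with edgeR 4.0.16 (R 4.3.3, TMM scaling, filterByExpr, quasi-likelihood test over 12 gradients, two-sided), with Benjamini-Hochberg adjustment over all genes and a threshold of 0.01. RiboLoad (logit, log2) and mean fraction were tested with limma 3.58.1 where genes averaged at least 100 counts in a gradient, after each library was scaled to 1000000 tags. DESeq2 1.42.0 was an alternative, as were another filter, other weights per fraction, leaving out gradients and the library pool as a replicate block. Same-pool gradients deviated together from their group means (r from 0.361 to 0.837 over 12 pairs), so that the pools pair the gradients. Scripts were tested on simulated counts.

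All members are described. Of other lists, called genes were named by size of change, at most 6 a comparison. Members and lists were chosen with earlier results of these data known. Gene positions follow GENCODE M21 (GRCm38) and promoters RefSeq (GRCm38.p6). Tables were handled in Python 3.11.15 with pandas 2.3.3, and plots drawn with matplotlib 3.10.9. The analysis of total mRNA is not used here.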

Additional observations from a re-analysis of the deposited data

Results flagged for a closer look

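In 90 sets of 4 gradients, formed from the level, RiboLoad and mean fraction of the 10 members in each treatment, 2 gradients stood far from the other 3 by Dixon's test, which picks about 1 in 20 such sets by chance. Dnajb9 in the LPS gradient of pool LUL16 had 18.9 CPM, and 22.9 to 23.5 CPM in the other LPS gradients. Hspa5 in the LPS+ET gradient of pool LUL15 had 398 CPM, and 485 to 488 CPM in the others.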

How the results depend on the processing

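With the library pool as a replicate block, 2 members were called in ribosome-associated mRNA for LPS+ET against LPS, 1 for LPS+ET+KU against LPS+ET, 5 in monosomes for LPS+ET against LPS, and 1 each in monosomes and light polysomes for LPS+ET+KU against LPS+ET. For LPS+ET against LPS, DESeq2, equal weight per fraction in limma and an adjusted p under 0.05 each called 1 member, Herpud1. For LPS+ET+KU against LPS+ET, DESeq2 and an adjusted p under 0.05 each called 1, Pdia6. For LPS+ET+KU against LPS, 4 were called at an adjusted p under 0.05, and 0 with no filter on low counts, with equal weight per fraction, with only the 8 compared gradients, or without pool LUL16. Light polysomes of LPS+ET kept 1 call without pool LUL16. Without fraction 15, the whole profile of LPS+ET+KU against LPS+ET called 1 member and the distribution 0. Leaving out pool LUL16, fraction 4 or fraction 15 was chosen after seeing the data. The causes of these changes were not tested.

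Leaving out 1 gradient at a time gave 0 to 1 calls for LPS+ET+KU against LPS, 2 in monosomes and 0 to 2 in light polysomes for LPS+ET, 0 to 1 for its distribution, and 1 to 2 for both the whole profile and the distribution of LPS+ET+KU against LPS+ET. The number of all genes called moved by over 1.5 times with the block, from 1618 to 3403, from 58 to 811 and from 1361 to 3589 in the 3 comparisons of ribosome-associated mRNA, and with DESeq2 to 412 in the second and 2263 in the third. In LPS+ET against LPS the block moved it from 850 to 2195 in monosomes, from 1055 to 2482 in light and from 1101 to 2338 in heavy polysomes. Between LPS+ET+KU and LPS+ET it moved from 19 to 502, 29 to 531 and 65 to 372, where DESeq2 called 109, 204 and 279. DESeq2 called 1761 and the fit without pool LUL16 1722 genes in heavy polysomes of LPS+ET. For ribosome-associated mRNA of LPS+ET+KU against LPS+ET, equal weight called 21 genes, only the 8 compared gradients 0 and no pool LUL16 275. The block moved the whole profile of that comparison from 839 to 1919 genes, and without a term per gradient the distribution tests fell from 593 to 142 and from 380 to 110. The block changed no member's call beyond those given. Over 19600 unfiltered genes the median was 0.12 for LPS+ET and 0.23 for LPS+ET+KU against LPS in DESeq2. In edgeR with no filter on low counts these medians were 0.097 and 0.235. Over the 12755 filtered genes edgeR with DESeq2 size factors had 0.023 and 0.074. No member value changed its direction while called. Among uncalled values, counts as deposited turned 16 of 40 differences in RiboLoad and mean fraction, and leaving out pool LUL16 turned 17 of 90 fold changes. Dnajb9, at 71 to 488 counts per gradient, and single fractions with few tags limit what could be detected.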
